A study of Mus musculus with 16 samples.

Results

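Brains of newborn mice sired by irradiated freeze-dried sperm were compared with brains of newborn mice sired by heated freeze-dried sperm. The 8 arrays were chosen by their sample titles, 4 irradiated and 4 heated, out of 16 in the series. In the irradiated group, freeze-dried sperm had received 5 Gy of X-rays. In the heated group, freeze-dried sperm had been held at 95 °C for 1 h. The other 8 arrays, 4 from offspring of untreated freeze-dried sperm and 4 from offspring of fresh sperm, entered the fit and are given as a backdrop. All animals were C57BL/6 at postnatal day 1, each array carried total RNA of the brain of 1 neonate, and the treatments were given to the sperm and not to the animals. Drying is thus shared by the irradiated, the heated and the freeze-dried groups, but not by the fresh group.

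Freeze-drying removes the water of sperm under vacuum, after which the cells can be stored dry; they no longer swim, and the head is injected into an egg to obtain young. X-rays break DNA, and dry heat denatures proteins and can damage DNA; the egg repairs paternal DNA after fertilization. Comparing the irradiated with the heated group asks how the brain transcriptome of young differs between these 2 treatments of the same dried material. The neonates of the heated group have numbers with several parts in the labels (the same first parts for all 4) and those of the irradiated group have single numbers, and the labels do not say which animals shared a litter, and p-values would be too small if some did. The p-values measure the spread between these animals and arrays only. In whole brain RNA, fewer cells of a type and less RNA per cell cannot be told apart.

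Levels are log2 signals of single-colour arrays relative to each array's 75th percentile, and differences are irradiated minus heated on the log2 scale with a standard error (SE). Between 62.8% and 65.7% of spots were well above background on the irradiated arrays, and between 59.9% and 64.2% on the heated arrays. The labelled tissue was borne out by Snap25, a neuronal synaptic protein, which lay between 2.51 and 3.34 and was well above background on all 16 arrays. Single animals differed in other ways. Eif2s3y, Ddx3y, Kdm5d and Uty, all on the Y chromosome, had high levels in irradiated 1 to 3 and in heated 4, and Xist had high levels in irradiated 4 and heated 1 to 3. The hindbrain gene Hoxb5 lay at -2.16, 0.18, 0.28 and 0.29 in irradiated 1 to 4, but heated 2 and heated 4 had only -7.72 and -8.28. The Purkinje cell gene Pcp2 lay at 0.26 to 0.63 in the irradiated group, while heated 2 and heated 4 had -3.10 and -4.26. The pituitary gene Pomc was at 2.58 in heated 1 and between -1.57 and -1.39 in the other 7 arrays of the pair of groups. Irradiated 1 and 2 were on slide 1, and irradiated 3 and 4 shared slide 2 with all 4 heated arrays. The part of these differences in the results below was not tested beyond the refits that are given with them.

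**Figure D1:**
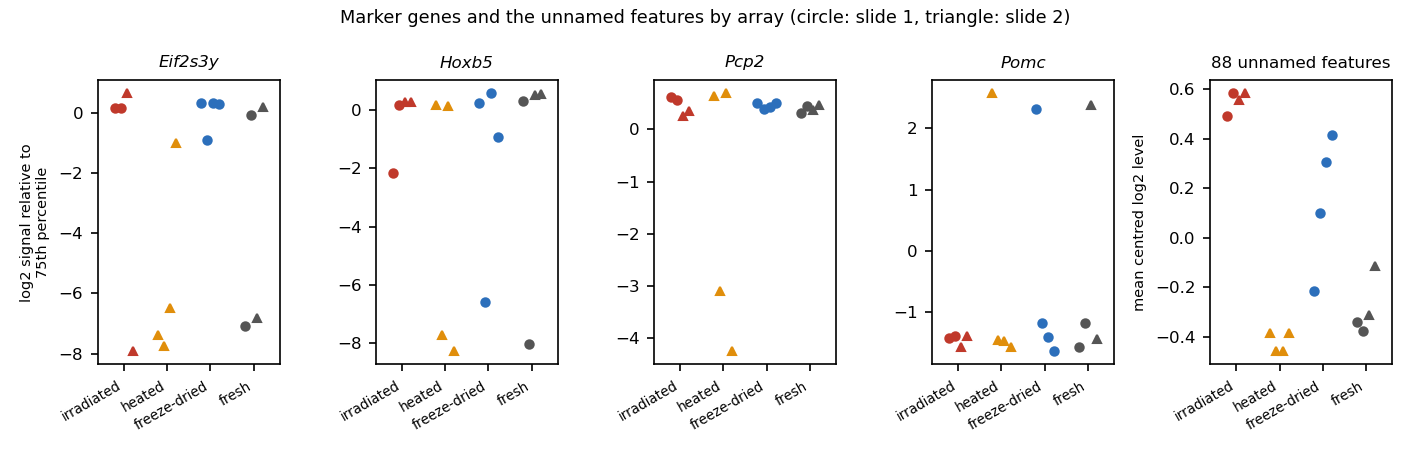
Levels of 4 marker genes on the 16 arrays as log2 signal relative to the 75th percentile, and, at right, the mean centred log2 level of the 88 unnamed features that were higher in the irradiated group. Each point is 1 animal; circles are slide 1 and triangles slide 2. Eif2s3y is high in 3 irradiated and 1 heated animal, Hoxb5 and Pcp2 are low in heated 2 and 4, and Pomc is high in heated 1.

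Of 26477 genes and features measured, 258 (0.974%) differed between irradiated and heated offspring at a limma adjusted p under 0.05, 113 higher (0.427%) and 145 lower (0.548%) in the irradiated group. Most changes were small: the median absolute difference of the 258 was 0.51 (median SE 0.094), and 43 reached 2-fold, 35 of them higher and 8 lower. In 257 of the 258 the 4 irradiated and the 4 heated values did not overlap, as they did not in 13% of everything measured (5.9% with the irradiated group on top and 7.14% with the heated group on top). Genes with a symbol made up 131 of the 258, 25 higher and 106 lower. The median difference over everything measured was -0.01, with 52% of differences below 0. Measured against the heated group, the 258 differed by a median of 0.55 in irradiated 1 and 2 (in the direction of the call). In irradiated 3 and 4, which shared the heated arrays' slide, the median was 0.51. All 258 had the same sign within that slide, as the 257 without overlap must, so the sign is no test of the slide. With the slide as a term 190 passed, within slide 2 alone 276 passed, and 61 of the 258 passed in both fits. With a Y-linked expression term 64 passed. With arrays scaled by their median 121 passed, 83 higher and 38 lower. Without the 4 arrays low in hindbrain genes, which leaves 2 heated animals, 12 passed, 5 of them among the 258. All 258 kept their sign there too, which the 257 without overlap could not lose. Leaving out 1 array lowered the count to 67, 48, 101 and 111 without irradiated 1 to 4 and to 86, 45, 90 and 115 without heated 1 to 4, and raised it to 388 without freeze-dried 1.

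**Figure D2:**
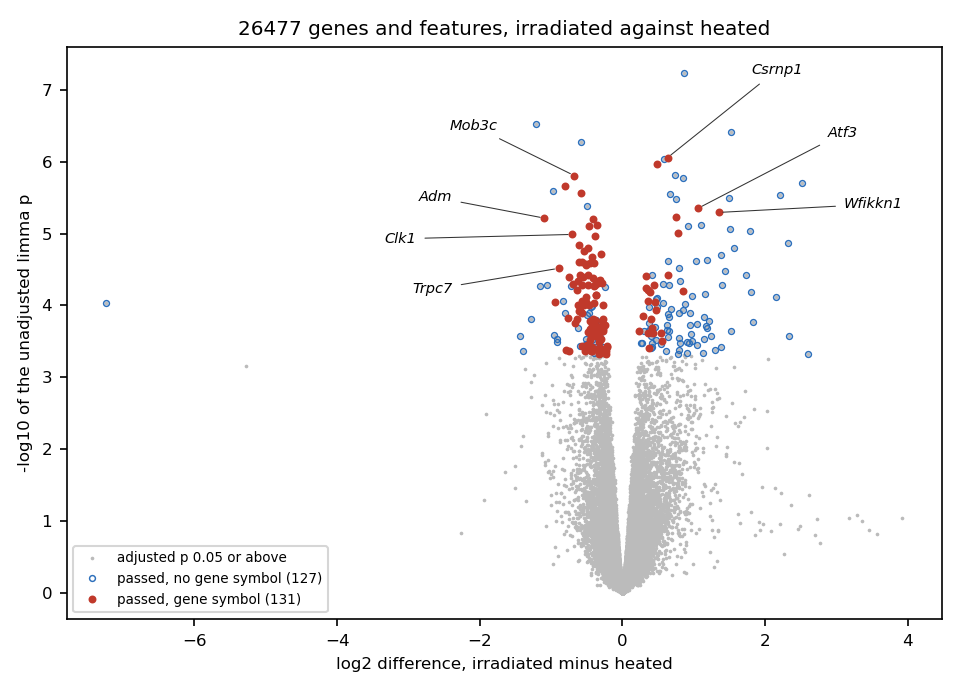
Each point is a gene or feature, with its log2 difference (irradiated minus heated) on the x axis and the -log10 of its unadjusted limma p on the y axis. Filled red points are the 131 genes with a symbol that passed, open blue points the 127 features without one, and grey points did not pass; the features without a symbol lie mostly on the side higher in the irradiated group, and the genes with a symbol mostly on the lower side.

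Of the genes with a symbol that rose, Wfikkn1 and Atf3 had the largest differences. Wfikkn1, a secreted protein that binds growth factors of the myostatin family, lay at -3.54, -3.48, -3.08 and -3.51 in irradiated 1 to 4, against -4.76, -4.69, -5.05 and -4.50 in heated 1 to 4. Every irradiated value was above every heated value, and the 4 freeze-dried arrays, at -4.36 to -3.40, covered much of the range between them. The difference was 1.35 (SE 0.19, limma adjusted p = 0.0064), a 2.55-fold higher level in the irradiated group. Atf3, a transcription factor that many kinds of cellular stress induce, lay at -3.15, -2.96, -3.12 and -2.87 in irradiated 1 to 4, against -3.96, -4.46, -3.96 and -3.98 in heated 1 to 4. The groups did not overlap, heated 2 being the lowest, and the difference was 1.06 (SE 0.15, limma adjusted p = 0.0059), or 2.09-fold. The freeze-dried arrays were nearer to the irradiated ones for this gene, at -3.53 to -3.15. Atf3 was the 1 gene to pass among 17 measured genes of the integrated stress response, 8 of which were above 0 (median -0.00). Csrnp1, a nuclear activator of transcription, held values within a narrow band in each group, -1.20, -1.20, -1.09 and -1.14 in irradiated 1 to 4 and -1.75, -1.74, -1.79 and -1.89 in heated 1 to 4. Its difference was 0.63 (SE 0.08, limma adjusted p = 0.0040). The gene lies on mouse chromosome 9 (chr9:119971163-119984742), Wfikkn1 on chromosome 17 (chr17:25877628-25880858) and Atf3 on chromosome 1 (chr1:191170296-191183333), positions being those of RefSeq on GRCm38.p6.

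Other increases were Utp14b at 0.85, C2cd4b at 0.78 and Zfp787 at 0.76. Utp14b, a retrogene copy of a ribosome biogenesis gene that male germ cells need, lay at -3.24, -3.14, -3.05 and -3.11 in irradiated 1 to 4, against -4.05, -3.78, -3.99 and -4.13 in heated 1 to 4. The irradiated animals were also above all 4 freeze-dried animals, which lay at -4.18 to -3.64, although the difference from the freeze-dried group did not pass (0.66, limma adjusted p = 0.556). Zfp787, a zinc finger protein, was at -2.16 to -2.07 in the irradiated and at -2.95 to -2.80 in the heated group. C2cd4b, a nuclear protein with a calcium-binding type of domain, was at -2.63 to -2.38 in the irradiated and at -3.50 to -3.09 in the heated group. Smaller increases that passed were Plekhf2 (0.56), an endosomal protein, Frat2 (0.54), an activator of Wnt signalling, Kif26b (0.49), a kinesin-related protein, Ska1 (0.46), part of the machinery that holds chromosomes to the spindle, Spin4 (0.43), Ccdc71l (0.40) and Ier2 (0.39). Of these increases, Wfikkn1, Atf3, Csrnp1, C2cd4b, Zfp787 and Kif26b held their call in every fit that left out 1 of the 16 arrays. Utp14b lost its call when irradiated 1, 2, 3 or 4 or heated 1, 3 or 4 was left out (adjusted p up to 0.0722), and Plekhf2, Frat2, Ska1, Spin4, Ccdc71l and Ier2 failed without 6 to 10 of the arrays (up to 0.122).

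Txnip and Arrdc3, related members of the arrestin family, rose together. Txnip, which inhibits thioredoxin and limits glucose uptake, lay at 3.06, 2.95, 3.10 and 3.16 in irradiated 1 to 4, against 2.56, 2.72, 2.60 and 2.52 in heated 1 to 4, and the difference was 0.47 (SE 0.09, limma adjusted p = 0.0258). Arrdc3, an adaptor in receptor turnover, lay at 1.02, 0.94, 1.13 and 1.12 in irradiated 1 to 4, against 0.70, 0.67, 0.44 and 0.62 in heated 1 to 4, a difference of 0.44 (SE 0.08, limma adjusted p = 0.0177). For both genes the irradiated group stood above all 12 other arrays. Both belong to the 16 measured genes of a glucocorticoid response list, in which no gene fell, 7 of 16 differences were above 0 and the median was -0.05, so that they did not move with the rest of that list. Pdk4, a kinase that holds back glucose oxidation and another member, differed by -0.37 without passing (limma adjusted p = 0.0509). Txnip lost its call without any single irradiated or heated array (adjusted p up to 0.0813), and Arrdc3 without irradiated 1, 3 or 4 or heated 2 or 3 (up to 0.058).

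Egr1, an immediate early transcription factor, did not pass although its values were far apart. Named here because of these values, it lay at 0.92, 0.88, 1.01 and 1.02 in irradiated 1 to 4, against 0.02, 0.07, 0.03 and 0.09 in heated 1 to 4. The fresh arrays spread from -1.08 to 0.35 and the freeze-dried arrays from -0.11 to 0.66, and they share the estimate of the spread with the pair compared. The log2 difference of Egr1 was 0.91 (limma adjusted p = 0.087), and it passed with only the 8 arrays (adjusted p = 0.000349) and with the slide as a term (1.18, adjusted p = 0.031). Of the 20 immediate early genes measured, Ier2 rose, none fell, and 12 differences were above 0 (median 0.06).

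**Figure D3:**
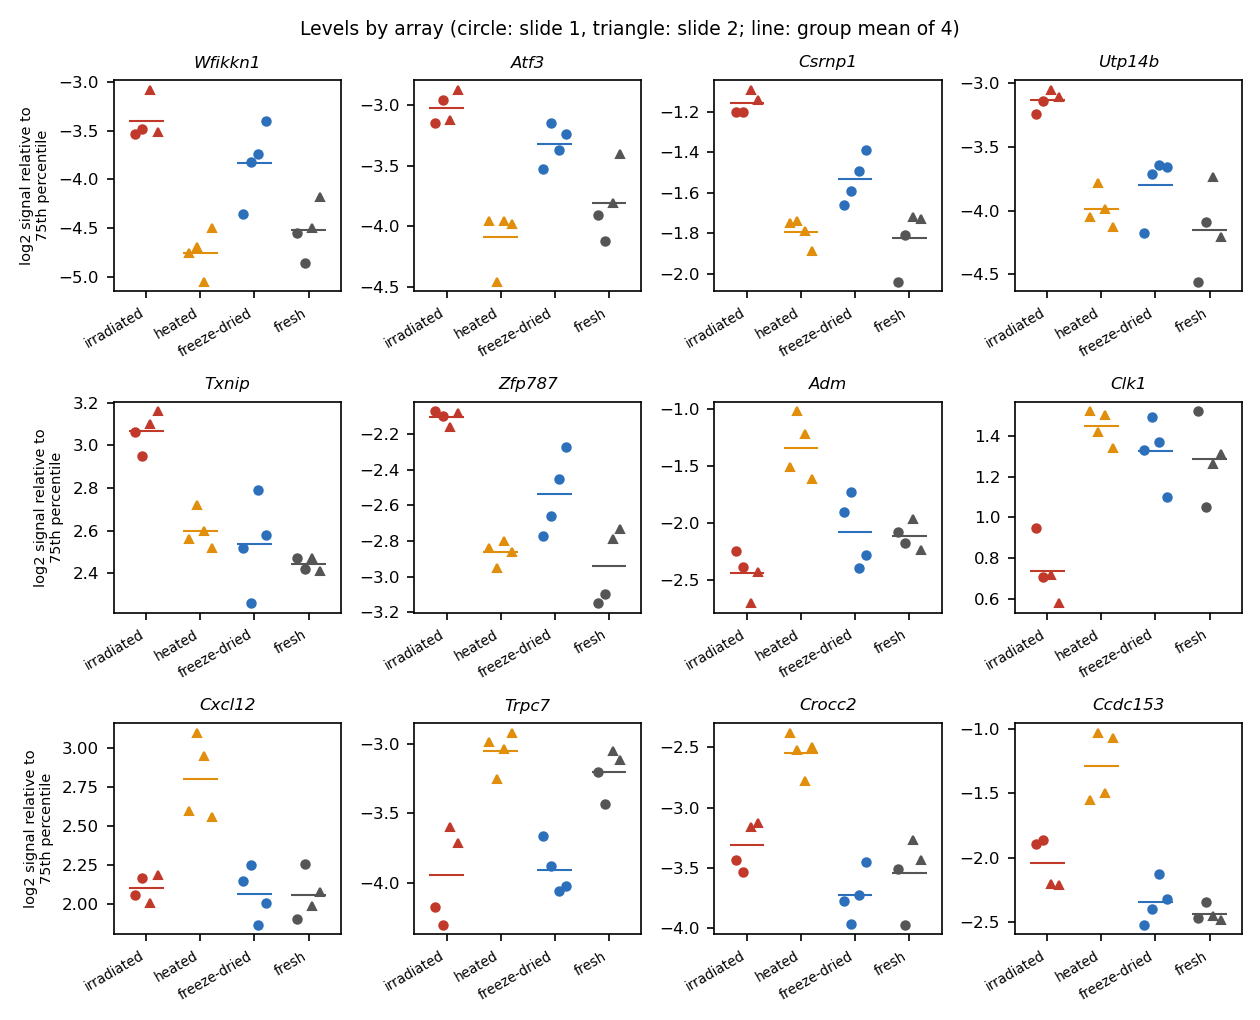
Levels of 12 genes by array, as log2 signal relative to the array's 75th percentile, with the irradiated group left of the heated, freeze-dried and fresh groups. Points are animals (circle slide 1, triangle slide 2) and lines are group means of 4. Txnip and Clk1 have the irradiated group apart from the other 12 arrays, whereas Adm, Cxcl12, Crocc2 and Ccdc153 have the heated group apart.

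Some genes of motile cilia fell in the irradiated group. Motile cilia are the beating hairs of the ependymal cells that line the brain ventricles; they are built by dynein motors and regulatory complexes whose genes are switched on by Foxj1 and by Rfx factors, which bind a GTTGCC half-site. In newborn mice ependymal cells are still maturing. Of 32 measured genes on a list of motile cilia genes, 5 fell, none rose and 30 differences were below 0. Their median was -0.18, beside -0.01 over everything measured. Among all genes with a symbol 0.663% were lower, and 53.6% of differences were below 0.

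The promoters of the 4 passing members that hold GTTGCC are printed so that the motif can be seen in its setting, 250 bases before to 50 bases after the start site from RefSeq on GRCm38.p6, with GTTGCC or its reverse complement GGCAAC in capitals.
Ccdc153 (chr9:44240427-44240726, forward strand): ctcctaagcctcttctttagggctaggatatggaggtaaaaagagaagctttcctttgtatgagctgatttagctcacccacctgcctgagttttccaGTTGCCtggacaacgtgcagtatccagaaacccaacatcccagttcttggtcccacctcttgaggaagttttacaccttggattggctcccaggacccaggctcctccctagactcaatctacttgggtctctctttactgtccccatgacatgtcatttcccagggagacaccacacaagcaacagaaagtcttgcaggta
Crocc2 (chr1:93168173-93168472, forward strand): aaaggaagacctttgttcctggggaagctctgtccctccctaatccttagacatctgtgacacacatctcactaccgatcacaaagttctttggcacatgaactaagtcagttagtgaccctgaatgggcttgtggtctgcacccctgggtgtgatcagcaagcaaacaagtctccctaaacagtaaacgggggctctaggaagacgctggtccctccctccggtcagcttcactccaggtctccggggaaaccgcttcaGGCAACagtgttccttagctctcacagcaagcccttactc
Iqca (chr1:90153387-90153686, reverse strand): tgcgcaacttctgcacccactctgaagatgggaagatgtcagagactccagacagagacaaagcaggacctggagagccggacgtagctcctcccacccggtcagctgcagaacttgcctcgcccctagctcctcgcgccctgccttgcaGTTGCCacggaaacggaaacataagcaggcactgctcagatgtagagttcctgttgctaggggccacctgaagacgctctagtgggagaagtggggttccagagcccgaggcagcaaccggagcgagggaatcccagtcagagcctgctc
Rfx3 (chr19:28011117-28011416, reverse strand): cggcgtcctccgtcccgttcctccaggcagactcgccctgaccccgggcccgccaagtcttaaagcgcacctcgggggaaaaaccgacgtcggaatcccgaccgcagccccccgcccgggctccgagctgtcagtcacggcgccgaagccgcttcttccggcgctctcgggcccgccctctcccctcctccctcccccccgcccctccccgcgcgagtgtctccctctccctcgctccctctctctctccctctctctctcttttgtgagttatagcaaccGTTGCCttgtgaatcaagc
Searched on both strands, GTTGCC was present in 19 of the 29 measured list members with a promoter entry (65.5%) and in 4 of the 5 that passed. Counted by gene in the same way, it was present in 14.1% of all 27025 genes with a promoter entry. Tmem212, the member that passed without it, does not hold these letters in this window. The share with GTTGCC is a description of the list, which was made of motile cilia genes.

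Ccdc153, a part of the complex that regulates ciliary dynein, lay at -1.89, -1.86, -2.20 and -2.21 in irradiated 1 to 4, against -1.55, -1.03, -1.5 and -1.07 in heated 1 to 4. The groups were adjacent without overlap, and the difference was -0.75 (SE 0.13, limma adjusted p = 0.0174). Crocc2, a relative of the ciliary root protein, lay at -3.43, -3.53, -3.16 and -3.13 in irradiated 1 to 4, against -2.38, -2.52, -2.78 and -2.50 in heated 1 to 4, and the difference was -0.77 (SE 0.15, limma adjusted p = 0.0302). For both genes the heated animals were above all 12 others, the freeze-dried and fresh arrays lying at -2.52 to -2.13 and -2.48 to -2.34 for Ccdc153 and at -3.96 to -3.45 and -3.97 to -3.27 for Crocc2. Iqca, of the same regulatory complex, differed by -0.53 (limma adjusted p = 0.0239), Tmem212, a membrane protein of ependymal cells, by -0.75 (adjusted p = 0.0464) and Rfx3, one of the factors that switch ciliary genes on, by -0.23 (adjusted p = 0.0464). Hydin, needed for ciliary beating, had the largest difference of the list and did not pass (-0.82, limma adjusted p = 0.0561): it lay at -4.58 to -4.31 in the irradiated and at -4.15 to -2.99 in the heated group. Foxj1 itself was at -0.39 to -0.14 in the irradiated and at -0.21 to 0.04 in the heated group (-0.17, adjusted p = 0.394).

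The list's mean level, centred on all 16 arrays, was 0.027, 0.088, -0.004 and -0.021 in irradiated 1 to 4, against 0.281, 0.373, 0.165 and 0.335 in heated 1 to 4. It was -0.249 to -0.013 in the freeze-dried and -0.218 to -0.120 in the fresh group, so the heated animals stood above all others, while irradiated 4 lay just below the highest freeze-dried animal. The calls rested on few arrays. None of the 32 passed without irradiated 3 or without heated 2, 1 passed without irradiated 1 or 2 or heated 4, 2 without irradiated 4 or heated 1, 3 without freeze-dried 2 or 4, and 1 passed with the slide as a term, within slide 2 or with the Y-linked term. Ccdc153 and Tmem212 were highest in heated 2 and 4, the brains low in hindbrain genes, while Crocc2 was highest in heated 1. Without the 4 low-hindbrain arrays the differences were -0.51 for Ccdc153, -0.73 for Crocc2, -0.37 for Iqca, -0.57 for Tmem212 and -0.17 for Rfx3. None of these passed there (limma adjusted p 0.156 to 0.38). The median of the list stayed between -0.24 and -0.16 in all 34 refits. Choroid plexus, the other ventricular epithelium, had 16 measured markers of which Otx2 alone passed, as a rise (0.35, limma adjusted p = 0.035), with 9 differences above 0. Otx2 is also on a list of thalamus and midbrain genes. There it alone passed, and 17 of 20 differences were above 0 (median 0.10), beside 47.7% of everything measured. Otx2 lost its call without 7 of the arrays (up to 0.126), with the slide as a term (0.092), within slide 2 (0.0861) and with the Y-linked term (0.0792).

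Of 18 measured hypoxia-inducible genes 2 fell in the irradiated group, and all 18 differences were below 0. By comparison, 0.663% of all genes with a symbol were lower, and 53.6% of their differences were below 0. When oxygen is short, or when its sensors are inhibited, the factor HIF binds the core letters ACGTG or GCGTG and raises genes of glycolysis, of blood vessel growth and of its own feedback. The promoters of the 2 passing members show these letters, with ACGTG or GCGTG and the reverse complements CACGT or CACGC in capitals.
Adm (chr7:110627407-110627706, forward strand): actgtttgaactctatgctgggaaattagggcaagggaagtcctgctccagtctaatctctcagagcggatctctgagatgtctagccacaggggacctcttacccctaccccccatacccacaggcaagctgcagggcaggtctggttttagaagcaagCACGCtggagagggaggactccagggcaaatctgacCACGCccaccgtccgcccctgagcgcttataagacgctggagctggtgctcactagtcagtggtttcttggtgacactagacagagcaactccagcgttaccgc
Ankrd37 (chr8:45999801-46000100, reverse strand): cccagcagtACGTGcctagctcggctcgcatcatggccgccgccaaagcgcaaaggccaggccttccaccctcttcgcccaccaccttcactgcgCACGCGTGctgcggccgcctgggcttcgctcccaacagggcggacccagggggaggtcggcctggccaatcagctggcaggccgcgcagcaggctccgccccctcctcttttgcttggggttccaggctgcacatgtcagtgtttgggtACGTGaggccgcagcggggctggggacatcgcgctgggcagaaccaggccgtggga
The letters were present on either strand in 17 of 17 measured members with a promoter entry, and in 46.7% of all 27025 genes with one. Their presence is a description of the list, whose members are known targets.

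Adm encodes adrenomedullin, a peptide that widens blood vessels, and lies on chromosome 7 (chr7:110627657-110629820). It lay at -2.24, -2.38, -2.70 and -2.43 in irradiated 1 to 4, against -1.51, -1.02, -1.22 and -1.61 in heated 1 to 4. Among genes with a symbol this was the largest decrease that passed, -1.10 (SE 0.16, limma adjusted p = 0.0069), a ratio of 0.468. The freeze-dried arrays lay at -2.39 to -1.73 and the fresh arrays at -2.23 to -1.96, below every heated array. Ankrd37, an ankyrin repeat protein, lay at -0.12, -0.17, -0.28 and -0.13 in irradiated 1 to 4, against 0.30, 0.26, 0.29 and 0.04 in heated 1 to 4, and the difference was -0.40 (SE 0.07, limma adjusted p = 0.0177). Adm kept its call whichever array was left out (adjusted p up to 0.0288) and with the slide term (0.0135), within slide 2 (0.0365) and with the Y-linked term (0.0269). Ankrd37 lost it without irradiated 2 or 3 or heated 1, 2 or 3 (up to 0.0722).

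The other 16 members did not pass. Vegfa, the growth factor of blood vessels, lay at 1.65, 1.75, 1.59 and 1.60 in irradiated 1 to 4, against 2.07, 2.28, 2.18 and 1.83 in heated 1 to 4, and did not pass (-0.44, limma adjusted p = 0.0627). Car9 (-0.57), Pdk1 (-0.29), Slc2a1 (-0.25), Bnip3 (-0.20) and Ldha (-0.17) also did not pass, with adjusted p between 0.122 and 0.203. In 9 of the 18 the groups did not overlap, where 7.14% of everything measured lay apart in that direction. Kdr, the receptor through which Vegfa acts on endothelial cells, fell (-0.32, limma adjusted p = 0.0446), and was the single member to pass among 17 endothelial genes measured, of which 10 were below 0 (median -0.13); it lost its call without 11 of the 16 arrays. The mean level of the hypoxia list was -0.074, -0.052, -0.079 and -0.015 in irradiated 1 to 4, against 0.190, 0.293, 0.213 and 0.135 in heated 1 to 4. The freeze-dried arrays were at -0.130 to 0.013 and the fresh arrays at -0.133 to -0.047, near the irradiated ones. The median of -0.17 stayed between -0.21 and -0.11 in 34 refits, and all 18 were below 0 with the slide as a term, within slide 2, with the Y-linked term and without the arrays low in hindbrain genes.

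**Figure D4:**
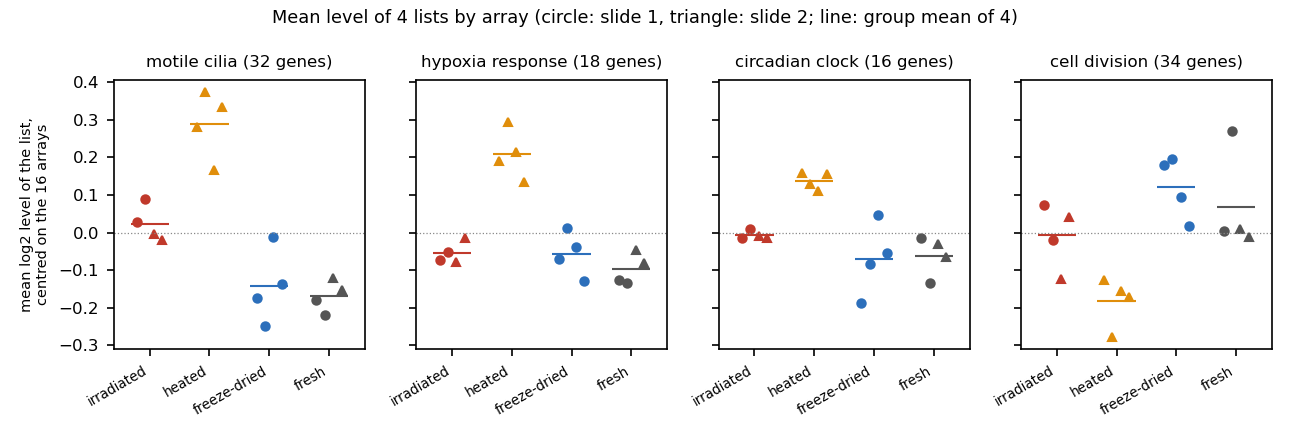
Mean log2 level of the measured genes of 4 lists on each array, centred on the 16 arrays, with the irradiated group leftmost. Points are animals (circle slide 1, triangle slide 2) and lines are group means of 4. The 4 heated animals stand highest for motile cilia, hypoxia and circadian genes, and low for cell division genes, where heated 1 (-0.125) lies beside irradiated 3 (-0.123).

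The genes on a cell division list and a DNA replication list were mostly above 0 without any listed gene passing. Of 34 cell division genes 32 differed upwards (median 0.20), and of 30 replication genes 27 (median 0.15), while 0 passed in either list by limma. An unadjusted p under 0.05 was seen for 15 of the 34 and 8 of the 30, both above the 13.8% of everything measured. Mki67, the proliferation marker, lay at 1.86, 1.95, 1.77 and 1.85 in irradiated 1 to 4, against 1.70, 1.44, 1.71 and 1.5 in heated 1 to 4 (0.27, limma adjusted p = 0.0908). Nuf2, of the kinetochore, differed by 0.27 (adjusted p = 0.0992), Rrm1, which makes DNA precursors, by 0.23 (0.124) and Mcm5, of the replicative helicase, by 0.44 (0.146). Mki67 lay at 1.98 to 2.06 in the freeze-dried and at 1.79 to 2.04 in the fresh group. The cell division median was 0.12 to 0.24 over 34 refits, and the log2 difference of Mki67 was 0.16 without the 4 arrays low in hindbrain genes. Ska1 and Kif26b, which rose, are not on these lists. The lists do not hold every gene of these processes, and genes of them off the lists passed in both directions.

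Among circadian clock genes 15 of 16 differences were below 0 (median -0.15), and 0 passed by limma, with 4 of 16 at an unadjusted p under 0.05. Over everything measured 52% of differences were below 0 and 13.8% had an unadjusted p under 0.05. Per2, a repressor of the clock, lay at -0.29, -0.39, -0.41 and -0.46 in irradiated 1 to 4, against -0.09, -0.01, -0.07 and -0.23 in heated 1 to 4 (-0.29, limma adjusted p = 0.10). Ciart, another repressor, differed by -0.26 (0.307). The member above 0 was Nr1d1 (0.25, adjusted p = 0.37), itself a clock repressor. The hour at which the animals were taken is not given in the labels, and its part was not tested.

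**Figure D5:**
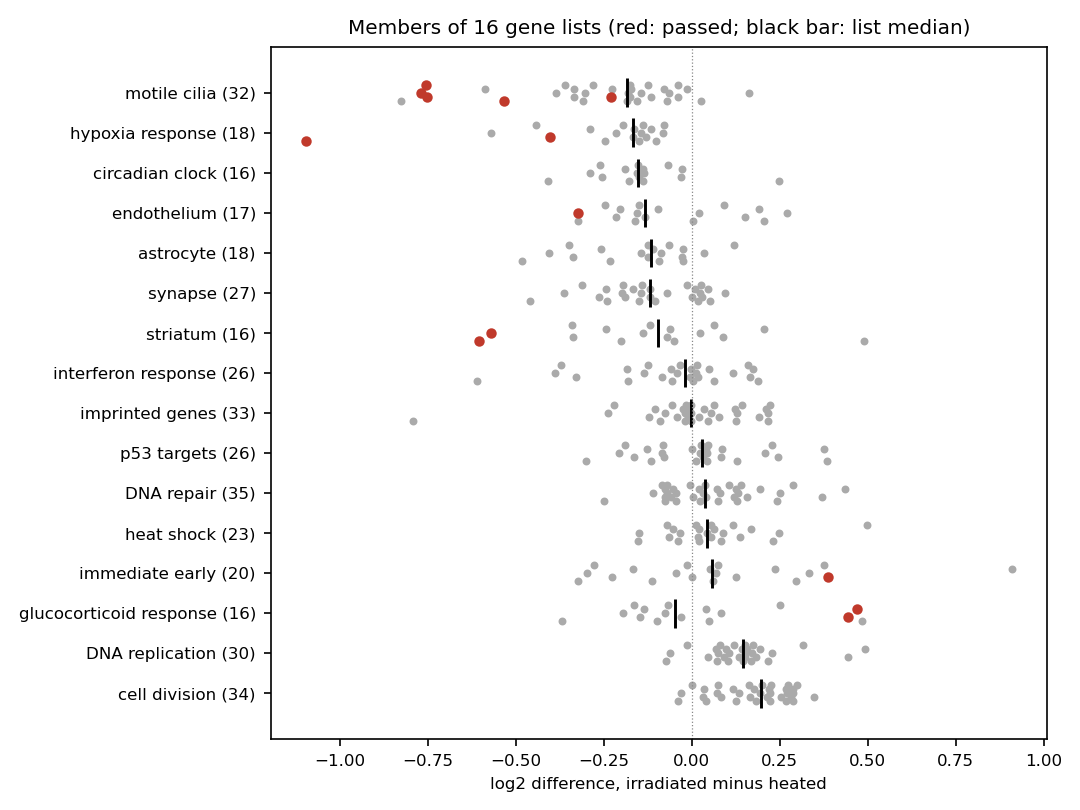
Log2 differences (irradiated minus heated) of the measured members of 16 gene lists, with the number of members in brackets. Each point is a gene, red points passed, and black bars are list medians. All 18 hypoxia genes lie left of 0 and 32 of 34 cell division genes right of it, while p53, DNA repair, heat shock, interferon and imprinted genes straddle 0 with no red point.

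No listed gene that responds to radiation damage or to heat in exposed cells passed. None of 26 p53 target genes passed (median 0.03), nor of 35 DNA repair genes (0.04) or 23 heat shock genes (0.04). In the same order, 8, 5 and 4 had an unadjusted limma p under 0.05, beside 13.8% of everything measured. The 4 irradiated and 4 heated values did not overlap for 7, 6 and 6 of them, beside 13% of everything measured. Cdkn1a, the p53-induced cell cycle inhibitor, lay at 0.83, 0.92, 0.68 and 0.76 in irradiated 1 to 4, against 0.72, 0.69, 0.80 and 0.66 in heated 1 to 4, and the groups overlapped (0.08, SE 0.07, limma adjusted p = 0.678). Ccng1, another p53 target, differed by 0.04 (0.838). Nearest to passing were Btg2, an antiproliferative target, at 0.38 (0.056), and Sesn1, which restrains growth signalling, at 0.23 (0.0598). Among repair genes Lig4, the ligase of end joining, differed by -0.25 (0.075). Hspa1b, an inducible heat shock chaperone, lay at -1.66, -1.87, -1.83 and -1.47 in irradiated 1 to 4, against -2.18, -2.18, -2.03 and -2.45 in heated 1 to 4 (0.50, limma adjusted p = 0.12), and its near-identical neighbour Hspa1a, whose probes may share signal with it, differed by 0.25 (0.199). These p-values miss the threshold and do not show equal levels.

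Imprinted genes, which keep marks set in the germ line, had 0 of 33 passing, 15 above 0 and a median of -0.00. Igf2, the fetal growth factor expressed from the paternal copy, lay at 2.02 to 2.12 in the irradiated and at 2.05 to 2.20 in the heated group (-0.05, limma adjusted p = 0.773). H19, its maternally expressed neighbour, lay at 3.98 to 4.24 in the irradiated and at 3.87 to 3.94 in the heated group (0.22, adjusted p = 0.233). None of 26 interferon genes passed (median -0.02), and Isg15 was -0.00 apart. The irradiated values of that list split by slide: its mean level was 0.310 and 0.744 in irradiated 1 and 2 and 0.093 and -0.129 in irradiated 3 and 4, against 0.214 to 0.417 in the heated group. Within slide 2 its median was -0.35, with 23 of 26 below 0 and 1 decrease that passed, and without irradiated 4 the median was 0.08. Of 25 chromatin regulators none passed; Tet2, which oxidizes methylated DNA, was nearest (-0.48, 0.0626), and Ezh2, which methylates histone H3, differed by 0.25 (0.109).

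Among genes of neurons and glia, a few changed. Cxcl12, the chemokine that guides migrating interneurons and vessels, lay at 2.06, 2.17, 2.01 and 2.19 in irradiated 1 to 4, against 2.60, 3.10, 2.95 and 2.56 in heated 1 to 4. The freeze-dried and fresh arrays, at 1.87 to 2.25 and 1.91 to 2.26, lay with the irradiated ones. The difference was -0.70 (SE 0.12, limma adjusted p = 0.0177), and it did not pass without irradiated 1, 2 or 3 or heated 2 or 3 (up to 0.0625). Striatal genes held 2 decreases among 16, where 0.663% of all genes with a symbol were lower. These were Gpr6, an orphan receptor of striatal neurons, at -0.60 (limma adjusted p = 0.0142) and Drd1, the dopamine D1 receptor, at -0.57 (0.0434). Of the 16 differences 11 were below 0, as were 53.6% of those of all genes with a symbol. Drd1 lay at -0.31, -0.48, -0.48 and -0.55 in irradiated 1 to 4, against -0.09, 0.23, -0.01 and 0.32 in heated 1 to 4, highest in heated 2 and 4, the brains low in hindbrain genes. Without the 4 low-hindbrain arrays its difference was -0.41 and that of Gpr6 -0.57, and neither passed. Htr4 was the decrease among 9 serotonin receptors (-0.58, 0.0269), and Hrh1, the histamine H1 receptor, fell by 0.64 on the log2 scale (0.019). Gpr6 lost its call without heated 2 (0.0578), Htr4 and Hrh1 without 6 and 7 arrays, and Drd1 without 10. None of 27 synaptic genes passed (18 below 0, median -0.12; Syt1 -0.26, adjusted p 0.0641), nor of 18 astrocyte genes (16 below 0, median -0.12; Gfap -0.48, 0.26) or of 18 microglial genes (13 below 0; Siglech -0.56, 0.14).

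Trpc7, a calcium-permeable channel, lay at -4.17, -4.30, -3.60 and -3.71 in irradiated 1 to 4, against -2.99, -3.25, -3.04 and -2.92 in heated 1 to 4, a difference of -0.89 (SE 0.15, limma adjusted p = 0.0155). Its irradiated values split by slide, and the fresh arrays, on both slides, were at -3.43 to -3.05. Within slide 2 the difference was -0.60 (adjusted p = 0.0442), and without irradiated 1 or 2 it did not pass (up to 0.055). Dlx4, a homeobox gene of the family that makes interneurons, lay at -4.93, -5.29, -5.38 and -5.55 in irradiated 1 to 4, against -4.33, -4.03, -4.72 and -4.31 in heated 1 to 4 (-0.94, SE 0.17, limma adjusted p = 0.0232). Its signal was dim: the freeze-dried arrays lay at -5.85 to -5.61, and the fresh arrays, none well above background, at -6.26 to -5.52. Dlx4 was the 1 gene to pass among 15 of interneurons, 8 of which were above 0, and it lost the call without 6 arrays (up to 0.0826). Regional lists carried the loss of hindbrain signal in heated 2 and 4. The 15 measured Hox and related hindbrain genes had a median of 2.37 with 15 above 0, and 17 cerebellar genes 0.36 with 15 above 0, but 0 passed in either. Without the 4 arrays low in hindbrain genes these medians were -0.30 and -0.02.

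Splicing genes changed in both directions. Clk1, a kinase that phosphorylates splicing factors, lay at 0.95, 0.71, 0.72 and 0.58 in irradiated 1 to 4, against 1.52, 1.42, 1.5 and 1.34 in heated 1 to 4. All 12 other arrays, at 1.05 to 1.52, were above the irradiated group. The difference was -0.70 (SE 0.11, limma adjusted p = 0.0085), and it held whichever array was left out (up to 0.0369), with the slide term (0.0156) and within slide 2 (0.0154). Pnisr, a splicing-associated protein, rose (0.37, limma adjusted p = 0.044), lying at 2.85 to 2.98 in the irradiated and at 2.49 to 2.69 in the heated group, but not without 12 of the 16 arrays. They were the 2 to pass of 20 genes of splicing kinases and factors (median 0.07, 15 above 0), where 0.974% of everything measured passed.

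Mob3c, of a family of kinase activators, lay at -5.30, -5.01, -4.92 and -5.01 in irradiated 1 to 4, against -4.41, -4.46, -4.24 and -4.43 in heated 1 to 4, and the freeze-dried and fresh arrays, at -4.58 to -4.28 and -4.54 to -4.38, lay with the heated ones. Its difference was -0.68 (SE 0.09, limma adjusted p = 0.0044). Kbtbd8, a substrate adaptor of a ubiquitin ligase, lay at -3.48, -3.62, -3.71 and -3.46 in irradiated 1 to 4, against -2.52, -2.90, -2.78 and -2.85 in heated 1 to 4, a difference of -0.80 (SE 0.11, limma adjusted p = 0.0048). Other decreases of the 15 largest were Depp1 (-0.78), a stress and starvation gene, Zfp456 (-0.67), Dnase1l2 (-0.64), a DNA-cutting enzyme, and Zxdc (-0.63), a zinc finger protein; they did not pass without 3 to 11 of the arrays.

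Of the 131 genes with a symbol that passed, 18 did so whichever array was left out. Besides Wfikkn1, Atf3, C2cd4b, Zfp787, Csrnp1, Kif26b, Adm, Clk1, Mob3c and Kbtbd8, they were Clic5 (-0.58), an intracellular channel-related protein, Ddn (-0.61), a postsynaptic protein, Nod2 (-0.57), a sensor of bacterial wall fragments, Simc1 (-0.48), Ccdc112 (-0.47), a centrosomal protein, Rerg (-0.41), a small GTPase, Pvr (-0.39), an adhesion receptor, and Rhcg (-0.35), an ammonium transporter, and these last 8 were chosen after their values were seen. Adm, Clk1, Csrnp1, Mob3c, Wfikkn1, Zfp787, Ccdc112 and Rhcg also passed with the slide as a term, within slide 2, with the Y-linked term alone and with slide, and with a Hox term. None of the 48 named genes that passed did so without the 4 arrays low in hindbrain genes, where Adm, Clk1 and Mob3c had an adjusted p of 0.0538 and Wfikkn1 0.0605.

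The freeze-dried mean was nearer to the irradiated mean for 104 of the 131 genes and nearer to the heated mean for 27. None of the 131 differed between the irradiated and freeze-dried groups at a limma adjusted p under 0.05, and 79 differed between the heated and freeze-dried groups. The shares over everything measured are not given for these counts, so they cannot be called particular to the 131 genes. These comparisons also share their arrays with the one described, and no freeze-dried array shares a slide with a heated one. Adm, for instance, differed by -0.36 (adjusted p = 0.683) between irradiated and freeze-dried animals and by 0.73 (0.025) between heated and freeze-dried animals, whereas Mob3c differed by -0.65 (0.0693) and 0.03 (0.866). On slide 2, where the fresh arrays can be set beside both groups, the mean of fresh 3 and 4 was nearer to irradiated 3 and 4 for 53 of the 131 and nearer to the heated arrays for 78. Among the 25 increases these counts were 5 and 20, and among the 106 decreases 48 and 58.

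Features without a gene symbol made up 88 of the 113 increases but 39 of the 145 decreases. Of 10484 such features measured 0.839% were higher and 0.372% lower, against 0.156% and 0.663% of the 15993 genes with a symbol. They are Ensembl transcripts, genome intervals and accessions that were not matched to a symbol here. The mean centred level of the 88 was 0.494, 0.586, 0.559 and 0.586 in irradiated 1 to 4, against -0.385, -0.457, -0.459 and -0.386 in heated 1 to 4, values that describe how they were picked. In arrays not compared it was -0.214, 0.102, 0.307 and 0.414 in freeze-dried 1 to 4 and -0.377 to -0.115 in the fresh group. The largest difference of all belonged to XR_882345, which lay at -7.08, -8.41, -7.33 and -7.30 in irradiated 1 to 4, where it was not well above background, against -0.42, -0.89, -0.13 and 0.25 in heated 1 to 4. Its level in the irradiated group was at least 53-fold lower (limma adjusted p = 0.0232). The call held in 8 of the 16 fits without 1 array, within slide 2, and with the Y-linked term, alone and with slide. It did not hold with the slide as a term, with the Hox term or without the low-hindbrain arrays. XR_882345 was not well above background in any freeze-dried array, and in the fresh group it lay at -8.05, 0.65, -4.12 and -0.20.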

How the data were processed

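Total RNA of 16 brains was hybridized to single-colour Agilent arrays. Per the submitters' processing notes, scans were read with Agilent Feature Extraction 11.0.1.1. Each deposited scanner file gives, for every spot, a fluorescence intensity from which the software had subtracted background, with no scaling across arrays. A deposited table of log2 values (column medians 9.335 to 9.348) served as an alternative only; its normalization is not given in the sources used here.

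Each array has 62976 spots, 3671 of them controls. Outlier spots (2043) were left out, 0 were saturated, and spots of a probe were averaged (56605 probes, 50 missing values). From each log2 processed signal the 75th percentile of its array was subtracted. Probes had to be well above background throughout 1 of the groups of 4 (34261 did). A gene was represented by its brightest such probe. This gave 15993 genes with a symbol, matched by accession to RefSeq of GRCm38.p6, and 10484 features without. Where all 4 arrays of a group were below that background mark, the fold is a bound set by the dimmest signal that passed the mark on each array. Arrays have no counts, so the number of arrays limits the precision.

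All 16 arrays were fitted with 4 group means in limma 3.58.1 in R 4.3.3 (12 residual degrees of freedom); tests were two-sided and moderated, Benjamini-Hochberg adjusted over everything measured, at a threshold of 0.05. No value was missing or imputed for the 258 calls. The fit was tested on simulated data. A term for Y-linked expression, for the slide or for the mean Hox level is a covariate of the same fit, the last being chosen after the data were seen.

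Results of some genes are not reported here, although counts include them. The groups, the 45 gene lists and the genes named were chosen with earlier results of these data known. The naming rule takes the 15 largest increases and decreases that passed without overlap, passing members of each list (otherwise the 2 with the smallest p) and a fixed set. Egr1, Vegfa, Hydin, Foxj1, Pdk4, Nr1d1, the other hypoxia genes that did not pass, the last 8 genes that held in every fit and the unnamed feature were added after their values were seen. Deviations of same-numbered irradiated and heated arrays from their group means correlated at -0.221, -0.093, 0.154 and -0.028, so the numbers do not pair the animals. Promoters come from RefSeq, and 29 of 32 cilia genes and 17 of 18 hypoxia genes had an entry.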

Additional observations from a re-analysis of the deposited data

Results flagged for a closer look

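In groups of 4, a value was picked out when its gap to the nearest other value exceeded Dixon's critical share of the group's range. Of 192 such groups 21 were picked, and chance picks about 1 group in 20. Sex-linked genes account for 8: in irradiated 4 Eif2s3y lay at -7.93, Ddx3y at -8.19, Kdm5d at -8.28, Uty at -7.61 and Xist at -1.12, whereas the other 3 irradiated animals lay at 0.16 to 0.65, -2.83 to -2.63, -0.86 to -0.77, -3.45 to -2.92 and -8.37 to -8.09 in the same order. In heated 4 Ddx3y lay at -3.10, Uty at -3.00 and Xist at -8.26, against -7.87 to -7.51, -7.70 to -7.32 and -1.25 to -1.05 in heated 1 to 3.

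Hoxb5 lay at -2.16 in irradiated 1, against 0.18 to 0.29 in the others. Gh was at 2.19 and Pomc at 2.58 in heated 1, with the other heated animals at -8.08 to -7.68 and -1.56 to -1.45. Pomc was also lowest in irradiated 3, at -1.57.

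Among genes that passed, Wfikkn1 was highest in irradiated 3 (-3.08), Atf3 lowest in heated 2 (-4.46), Ankrd37 lowest in heated 4 (0.04) and Htr4 lowest in heated 4 (-3.10), and in all 4 the irradiated and heated values did not overlap. Genes that did not pass were Zic2, highest in irradiated 2 at -0.55, Gfap, lowest in irradiated 4 at -1.21, Pdk4, highest in irradiated 4 at -2.96, Siglech, highest in heated 1 at 4.53, and Ifi27l2a, highest in heated 1 at -0.04.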

How the results depend on the processing

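The count of 258 became 728 with only the 8 irradiated and heated arrays, 162 with the replicate number as a block (the numbers do not pair the animals), 121 with median scaling, 112 in the deposited value table (24155 measured there), 91 with no filter on dim probes, 64 with the Y-linked term, 116 with that term and slide, and 12 without the 4 arrays low in hindbrain genes. It lay between 45 and 388 when 1 array was left out. Quantile normalization gave 304, normexp with quantile 254, the slide as a fixed or random block 190 and 220, the mean of a gene's probes 239 and an intensity trend 293. The sign of the 258 held in these refits but for 1 gene with a symbol, with the mean of probes. In fits that only left arrays out, the sign could not turn for the 257 without overlap. Against the deposited table or the stricter background filter, 229 of the 258 could be set. Of the 48 named genes that passed, 18 passed in all 16 fits without 1 array. Each of the 8 compared arrays ended some of the other calls, and Plekhf2, Depp1, Tmem212, Rfx3, Pnisr, Drd1 and Kdr also lost theirs without fresh 3 or 4 or freeze-dried 2, 3 or 4. Differences near 0 turned sign: the log2 difference of Isg15 (0.0195 with normexp, 0.0114 with quantile, 0.12 without the low-hindbrain arrays, and -0.2505 to 0.19 without 1 array), Igf2 (0.0215 by the mean of probes), Kdm5d (-0.85 and -0.88 with the Y-linked term, alone and with slide), Hoxb5 (-0.51 without the low-hindbrain arrays, -0.32 with the Hox term) and Pcp2 (-0.22 without those arrays). Terms take up what they are made of, as for Kdm5d and Hoxb5. For the others the cause was not tested.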

Other observations

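Genes with a symbol of Zfp and a number, which encode zinc finger proteins, were a set picked after the values were seen. Of 358 measured, 11 were lower and 2 higher in the irradiated group, 3.07% lower where 0.663% of all genes with a symbol were, and 69% of the differences were below 0, against 53.6%. Their median difference was -0.07, against -0.01 for all genes with a symbol. Examples that fell were Zfp456 (-0.67), Zfp560 (-0.61), Zfp712 (-0.56), Zfp93 (-0.54) and Zfp92 (-0.49), while Zfp787 (0.76) and Zfp516 (0.33) rose.

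Musk (-1.42, limma adjusted p = 0.178) and Gzma (-1.29, 0.0747) had large differences that did not pass, and were well above background in 2 and 3 irradiated arrays and in 4 heated arrays each.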
